A study of Mus musculus with 3 samples.

Results

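Esam(lo) dendritic cells (DCs) of the mouse spleen were compared on 2 arrays. The difference in log2 value was read between an array labelled RBPJ-deficient Esam(lo) and an array of control Esam(lo) cells. The comparison uses 2 of the 3 arrays of the study and all 19938 genes that had a probe set naming 1 gene. All mice carried a GFP reporter in Cx3cr1 and RBPJflox/flox alleles. The targeted mice also carried CD11c-Cre, and the controls were their Cre-negative littermates; the strain entry of the control samples lists only Cx3cr1-GFP. Spleens of 2-3 mice were pooled for each array, lymphoid and erythroid cells were depleted, and CD11c(hi) CD11b+ Esam(lo) GFP(hi) cells were sorted. Control Esam(hi) GFP(lo) cells gave the third array, whose values are printed beside the pair. The ages and sexes of the mice are not stated in the labels.

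DCs are the cells that show antigen to T cells. RBPJ is the DNA-binding protein through which all Notch receptors act: ligand binding releases the receptor's intracellular domain, which joins RBPJ on DNA and turns target genes on, whereas RBPJ without that domain recruits corepressors. In the spleen, signalling through Notch2 is known to sustain Esam-expressing CD11b+ DCs. The Cre recombinase is driven by the promoter of Itgax, which encodes CD11c, so it acts in DCs and in other cells that express CD11c.

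Each group has 1 array, so no test was possible and every statement below compares single arrays. RNA was hybridised to Affymetrix Mouse Gene 1.0 ST arrays and is given as log2 values made by RMA, a method that corrects background, normalizes arrays and summarises many probes as 1 value. The background of an array was set at the 95th percentile of 1204 chemosensory receptor genes, which are silent in most tissues, and was 6.75 for control Esam(lo), 6.86 for the labelled array and 7.16 for control Esam(hi). A gene was counted as higher or lower when it was at least 1.4-fold apart with the brighter array of the pair above background. Where the dimmer array was below background, the fold is a lower bound measured against that background. In RNA of a sorted population, fewer cells expressing a gene and less of its RNA per cell cannot be told apart.

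Rbpj itself was not lower on the labelled array. Its brighter probe set read 9.85 in both control populations and 10.04 on the labelled array, and its other probe set was below background everywhere, at 5.63 on both Esam(lo) arrays and 6.11 on the Esam(hi) array. Which part of the transcript these probe sets cover is not known here, so they do not check the deletion, and the sample is called by its label throughout. Both Esam(lo) arrays carried the markers of CD11b+ DCs: Itgax read 12.50 on the control and 12.44 on the labelled array, H2-Ab1 13.96 and 13.95, Flt3 11.47 and 11.54, and Irf4 10.05 on both. Esam, the sort marker, was below background on both, at 6.57 and 6.12, and read 7.79 in control Esam(hi) cells. Cx3cr1 read 9.58 on both Esam(lo) arrays and 8.32 on the Esam(hi) array.

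Few genes differed between the 2 Esam(lo) arrays. Above background lay 9399 genes: on the labelled array 70 of them (0.745%) were higher by at least 1.4-fold and 57 (0.606%) lower, 127 (1.35%) in all. At 2-fold the lower genes outnumbered the higher ones, 18 (0.192%) against 7 (0.0745%), and 25 genes (0.266%) were apart in either direction. The median difference was 0, the standard deviation over genes 0.16, and percentiles 1 and 99 were -0.40 and 0.43. Exactly equal values were held by 3778 genes (40.2%), which median polish over few arrays produces, so a tie is no measure of equal expression. Among the 5621 genes without a tie, 2.26% were at least 1.4-fold and 0.445% at least 2-fold apart.

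**Figure D1:**
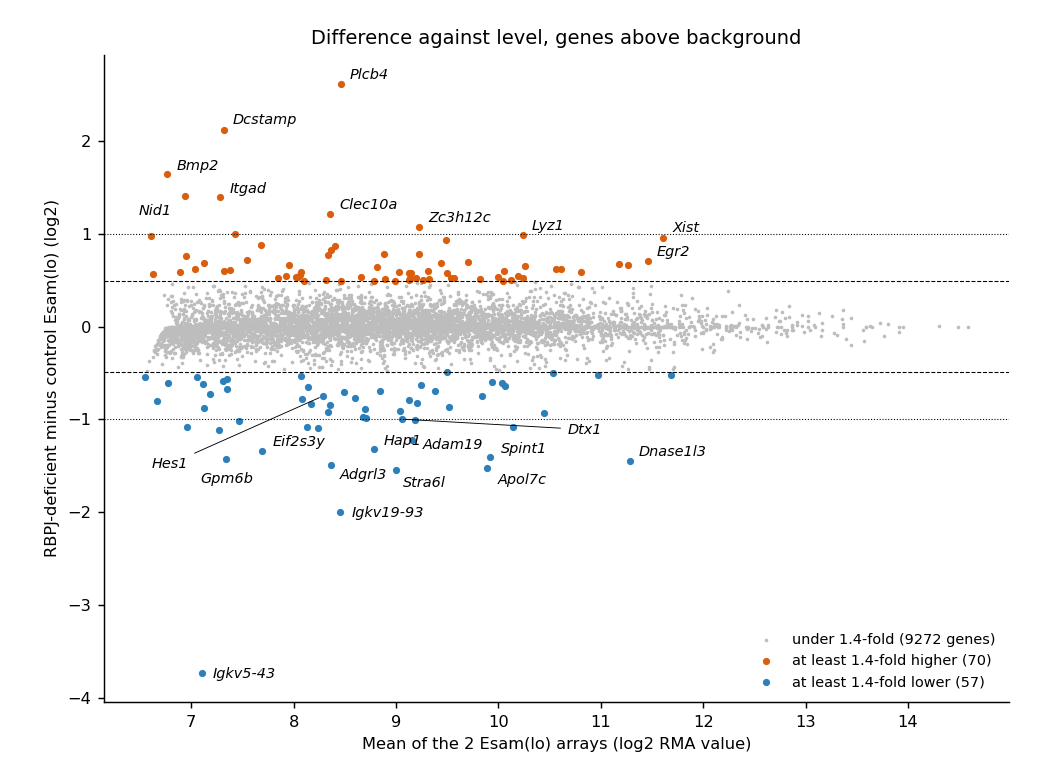
Difference between the labelled RBPJ-deficient and the control Esam(lo) array (log2) against the mean of both arrays (log2), for the 9399 genes above background. Each point is a gene; dashed lines mark 1.4-fold and dotted lines 2-fold, and the largest differences are Plcb4 above and the immunoglobulin segment Igkv5-43 below.

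The scatter of silent genes sets how far the smaller differences can be read. Without the background filter, 11 of the 1204 chemosensory receptor genes (0.914%) were at least 1.4-fold apart between the 2 arrays, and 141 of 18734 other genes (0.753%). None of the receptor genes was 2-fold apart, against 0.133% of the other genes. At so low a share, finding none does not separate 2-fold differences from scatter. After the filter 64 receptor genes remained, and 3 of them (Olfr309, Olfr485 and Olfr998) were counted as higher. Differences between 1.4-fold and 2-fold, held by 63 higher and 39 lower genes, are therefore no more frequent outside the receptor genes than among them when dim genes are included, and single genes in that range are given as values only.

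**Figure D2:**
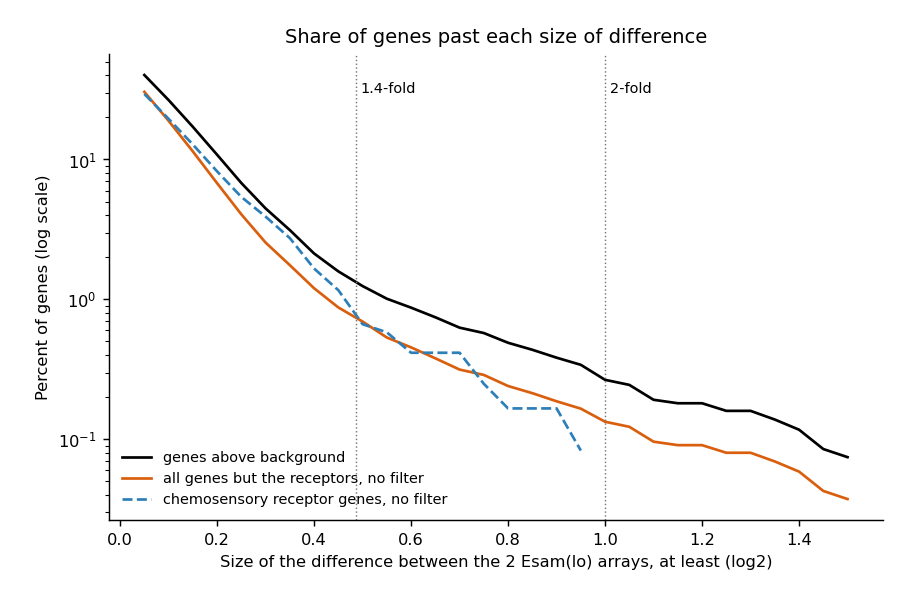
Percent of genes (log scale) whose difference between the 2 Esam(lo) arrays was at least the size on the horizontal axis (log2), for genes above background, for all genes but the receptors and for the chemosensory receptor genes without a filter. The curves without a filter run close together at 1.4-fold, and the receptor curve ends below 2-fold.

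Plcb4, a phospholipase C that acts downstream of Gq-coupled receptors, had the largest increase in value. It read 6.78 in Esam(hi) controls, 7.15 in Esam(lo) controls and 9.76 on the labelled array, a difference of 2.61 or 6.11-fold. It was below background in the former, just above it in the latter, and bright on the labelled array alone. Of the 18 genes of phospholipase C and Gq signalling above background, Plcb4 alone was past 1.4-fold; Plcb2 differed by -0.10, Plcg2 by -0.04 and Plcb3 by 0.

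Dcstamp, a multi-pass membrane protein needed for the fusion of osteoclasts and macrophages, was second. It read 6.50 in Esam(hi) and 6.26 in Esam(lo) controls, both below background, and 8.38 on the labelled array, at least 3.09-fold higher. Its partner Ocstamp went the other way, from 8.67 in Esam(lo) controls to 7.59, 2.12-fold lower, and read 7.65 in Esam(hi) controls. None of the other 12 fusion genes above background was past 1.4-fold.

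The other 5 genes at least 2-fold higher encode secreted, matrix and surface proteins and an RNA-binding protein. Bmp2, a bone morphogenetic protein, read 6.29, 5.94 and 7.59 in Esam(hi) controls, Esam(lo) controls and the labelled sample, at least 1.79-fold higher. Nid1, the basement membrane protein nidogen, read 7.14, 6.24 and 7.64, at least 1.86-fold higher. Itgad, the integrin chain CD11d, read 6.91, 6.59 and 7.98, at least 2.35-fold higher, although its other probe set read 6.53 on all 3 arrays. These 3 genes were below background on the control Esam(lo) array. Clec10a, a lectin that binds galactose and N-acetylgalactosamine, read 4.83, 7.75 and 8.96, and was 2.31-fold higher than in control Esam(lo) cells. Zc3h12c, a CCCH zinc finger protein of the Regnase family of RNA-degrading enzymes, read 9.09, 8.69 and 9.76, 2.10-fold higher, and its other probe set differed by 0.96. All 7 genes were also above the control Esam(hi) value.

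**Figure D3:**
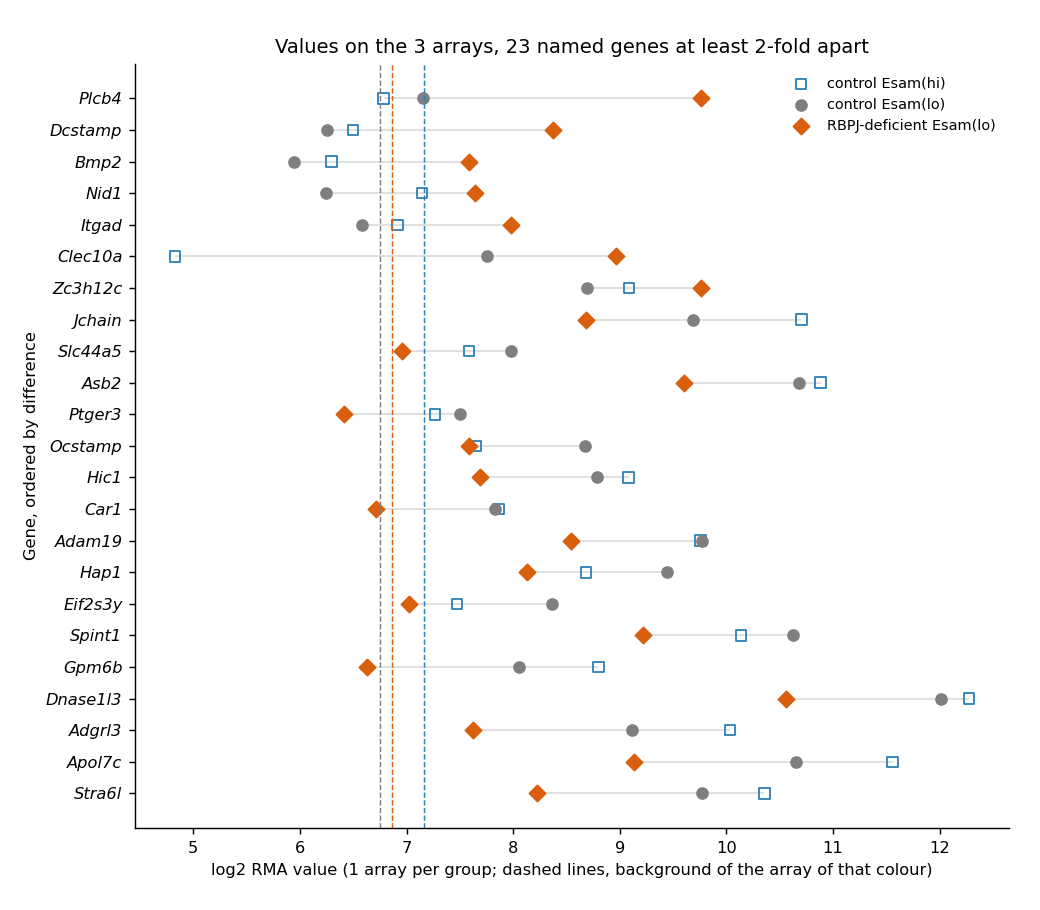
Log2 values on the 3 arrays for the 23 named genes at least 2-fold apart between the 2 Esam(lo) arrays, ordered by the difference; each symbol is 1 array and the dashed lines are the arrays' backgrounds. The labelled array (diamonds) lies beyond both controls for all 7 higher and all 16 lower genes shown, Ocstamp by a small margin.

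Stra6l, Apol7c and Dnase1l3 were among the 16 named genes at least 2-fold lower. Stra6l, a membrane receptor related to the retinol transporter Stra6, read 10.35 in Esam(hi) controls, 9.77 in Esam(lo) controls and 8.22 on the labelled array, 2.93-fold lower. Apol7c, an apolipoprotein L, read 11.56, 10.65 and 9.13, a difference of -1.52, whereas Apol8, the other family member above background, differed by -0.21. Dnase1l3, a secreted DNase that degrades DNA in cell debris, was among the brightest genes of the comparison at 12.28, 12.01 and 10.56, 2.73-fold lower. In the list of 12 nucleases acting on self nucleic acids Dnase1l3 alone was past 1.4-fold, and Samhd1, Pld4 and Trex1 differed by 0.02, -0.04 and 0. All 3 of these lower genes were brightest in control Esam(hi) cells.

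Surface proteins and proteases made up another group of the lower genes. Adgrl3, the adhesion G protein-coupled receptor latrophilin-3, read 10.03, 9.11 and 7.62 in Esam(hi) controls, Esam(lo) controls and the labelled sample, a difference of -1.49. Gpm6b, a proteolipid membrane protein best known from neurons, read 8.80, 8.06 and 6.63, and ended below background, at least 2.29-fold lower. Adam19, a membrane metalloprotease, read 9.76, 9.77 and 8.54, 2.34-fold lower, so the controls were alike and only the labelled array was low. Spint1, an inhibitor of the membrane serine protease matriptase, read 10.13, 10.62 and 9.22, 2.64-fold lower. St14, which encodes matriptase itself, read 9.40, 9.19 and 8.50, a difference of -0.70. Both the protease and its inhibitor were thus lower on the labelled array than on either control.

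The other lower genes past 2-fold are of mixed function. Hic1, a transcriptional repressor, read 9.08, 8.78 and 7.69 in the same order and was 2.14-fold lower. Asb2, the substrate-binding part of a ubiquitin ligase that targets filamins, read 10.88, 10.68 and 9.60, 2.11-fold lower. Hap1, a vesicle transport protein that binds huntingtin, read 8.68, 9.45 and 8.13, 2.49-fold lower. Ptger3, a receptor for prostaglandin E2, read 7.27, 7.50 and 6.42, at least 1.55-fold lower. Car1, a carbonic anhydrase abundant in red cells, read 7.86, 7.83 and 6.71, the last below background. Slc44a5, of the choline transporter-like family, read 7.58, 7.98 and 6.96. Eif2s3y and Jchain are described with the sex-linked and the immunoglobulin genes.

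The Notch pathway was read through its receptors, its processing machinery and its targets. Of 6 receptors and ligands above background, 0 were past 1.4-fold: Notch2 read 11.40 on the control and 11.50 on the labelled array, and Notch1 was tied at 8.38. Of 28 genes that cleave or modify Notch or work with RBPJ at DNA, 0 were past 1.4-fold and 13 were exactly tied, among them the coactivator Maml1 and the corepressor Spen. Of 5 target genes above background 2 were lower, against 0.606% of all genes above background. The list was chosen with earlier results of these data known, so this count is no test of Notch targets. Dtx1, a ubiquitin ligase of the Notch pathway, read 11.25 in control Esam(hi) cells, 9.55 in control Esam(lo) cells and 8.56 on the labelled array, a difference of -0.997, just under 2-fold. Hes1, a repressor that is a direct Notch target in many tissues, read 7.87, 8.66 and 7.91, a difference of -0.75. The other 3 targets differed little: Notch3 by -0.09, Hes5 by -0.04 and Myc by 0.01. Hey1, Hey2, Heyl, Il2ra, Nrarp and Ptcra were below background. Dtx1 was thus highest in Esam(hi) cells and lowest on the labelled array, whereas Hes1 was as low in Esam(hi) cells as on the labelled array.

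The promoters of the genes that differed were searched for TGGGAA, the core word that RBPJ is known to bind, on either strand of the 250 bases before the most upstream start that RefSeq lists (GRCm38.p6). The word was present in 5822 of 27025 promoters (21.5%) and in 1463 of 7567 promoters (19.3%) of genes above background. Promoters were listed for only 51 of the 70 higher genes, 40 of the 57 lower genes and 16 of the 25 genes at least 2-fold apart. The word was present in 9 of 51 promoters (17.6%) of higher genes and 6 of 40 (15%) of lower genes. It was present in 1 of the 16 promoters (6.25%) of genes at least 2-fold apart. The longer word GTGGGAA, which overlaps the first, was in 5.39% of all promoters, in 1 of 51 of the higher genes and in 0 of 40 of the lower genes. Neither word was more frequent before genes that differed than before all genes. The lower Notch targets Dtx1 and Hes1 were not among the genes with a match, and sites outside this window were not searched. The counts therefore do not decide whether RBPJ binds near the genes that differed. The 4 promoters below show a higher and a lower gene with a match and 2 lower genes without one; each runs 5′ to 3′ on the gene's strand, with the matched word in capitals (TTCCCA is TGGGAA on the other strand).
Nid1: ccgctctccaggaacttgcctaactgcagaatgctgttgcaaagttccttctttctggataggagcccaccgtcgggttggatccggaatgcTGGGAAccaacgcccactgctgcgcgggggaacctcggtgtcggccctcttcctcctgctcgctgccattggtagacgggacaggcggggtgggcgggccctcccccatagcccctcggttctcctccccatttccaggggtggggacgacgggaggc
Gpr4: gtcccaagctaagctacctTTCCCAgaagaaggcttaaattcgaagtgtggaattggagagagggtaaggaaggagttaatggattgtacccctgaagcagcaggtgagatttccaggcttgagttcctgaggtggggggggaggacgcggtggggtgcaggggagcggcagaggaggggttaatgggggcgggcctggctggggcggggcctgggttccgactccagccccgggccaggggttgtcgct
Spint1: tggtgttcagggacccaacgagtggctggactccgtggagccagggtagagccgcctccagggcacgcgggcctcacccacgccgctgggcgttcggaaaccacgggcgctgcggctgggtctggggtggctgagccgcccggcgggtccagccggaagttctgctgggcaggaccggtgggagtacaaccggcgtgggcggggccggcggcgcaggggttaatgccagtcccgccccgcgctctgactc
Hic1: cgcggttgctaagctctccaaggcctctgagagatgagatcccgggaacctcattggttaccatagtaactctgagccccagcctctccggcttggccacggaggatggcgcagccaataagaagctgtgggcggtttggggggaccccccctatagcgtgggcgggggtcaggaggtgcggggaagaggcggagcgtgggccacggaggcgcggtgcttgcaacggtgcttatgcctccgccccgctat
The Nid1 window (chr13:13437352-13437601, plus strand) holds the word at -158, counted back from the start, and Nid1 was higher on the labelled array. The Gpr4 window (chr7:19212288-19212537, plus strand) holds it at -231; Gpr4, a proton-sensing receptor, read 9.49, 7.63 and 7.07 in Esam(hi) controls, Esam(lo) controls and the labelled sample. The windows of Spint1 (chr2:119237110-119237359, plus strand) and Hic1 (chr11:75170256-75170505, minus strand) hold no match. A match is a description of letters in this window and not a site of binding, and binding elsewhere was not measured.

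Below 2-fold, the higher genes included lectins, chemokines and myeloid granule genes. Mgl2, the lectin encoded next to Clec10a, read 5.88 in Esam(hi) controls, 6.92 in Esam(lo) controls and 7.92 on the labelled array, a difference of 0.9996. Of 20 C-type lectin receptors above background, 3 were higher (Clec10a, Mgl2 and Clec5a) and 2 lower (Cd209c at -0.62 and Cd209d at -0.58). Their median difference was 0.02. Over all genes above background 0.745% were higher and 0.606% lower, and the median was 0. Of 12 chemokines 11 had a higher value and 1 a lower one, with a median of 0.19. Past 1.4-fold were Ccl9, at 9.73 and 10.26 on the pair, and Ccl2, at 8.54 and 9.03. Over all genes above background 2738 had a higher value and 2883 a lower one. Both lists were chosen with earlier results of these data known, so these counts are no sign of enrichment. Ccr1, a receptor of Ccl9, read 6.57 and 7.33, at least 1.49-fold higher, and Ccrl2, a chemerin-binding receptor, read 10.84 and 11.51.

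Other genes in this range were spread over many functions. Lyz1, a lysozyme of myeloid cells, read 7.42, 9.75 and 10.73 in Esam(hi) controls, Esam(lo) controls and the labelled sample, a difference of 0.98. Slc6a20a, a proline transporter, differed by 0.93, the lipase family gene Lipo3 by 0.88, and Hcar2, the niacin receptor, by 0.87. Ift57, a protein of intraflagellar transport, differed by 0.82, the lectin-like receptor Klrb1f by 0.78, and the adhesion receptor Adgrg6 by 0.78. Wnt11 differed by 0.71 and the tetraspanin Tspan3 by 0.69. Thbs1, the matrix protein thrombospondin-1, was already bright at 10.94 and read 11.60 on the labelled array. Il13ra1, a receptor chain for interleukin-13, read 7.86, 10.30 and 10.92. Nrp2, a semaphorin coreceptor, and Plxna1, a semaphorin receptor, were higher by 0.61 and 0.53. Fabp5, a fatty acid binding protein, differed by 0.51, and by 0.48 in its other probe set. Adam23, an ADAM family member, read 11.96, 10.51 and 11.10. Thus Lyz1, Thbs1 and Il13ra1, which were higher in Esam(lo) than in Esam(hi) control cells, were higher still on the labelled array. Such genes went both ways. Past 1.4-fold, 16 genes at least 2-fold brighter in Esam(lo) than in Esam(hi) controls were higher on the labelled array and 14 were lower.

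The lower genes between 1.4-fold and 2-fold included transporters, proteases and signalling proteins. Slc12a2, a sodium, potassium and chloride cotransporter, read 9.56, 9.20 and 8.21 in Esam(hi) controls, Esam(lo) controls and the labelled sample. Abcb1a, a drug efflux pump, read 9.88, 8.80 and 7.88, and Slco3a1, an organic anion transporter, read 8.98, 9.49 and 8.58. Ace, the angiotensin-converting enzyme, differed in another way: it was far higher in Esam(lo) than in Esam(hi) control cells, at 10.91 against 7.27, and read 9.98 on the labelled array. Mmp12, a macrophage metalloprotease, differed by -0.84, the ion channel Trpm2 by -0.78, and Tlr7, a sensor of single-stranded RNA, by -0.79. Dusp6, a phosphatase of ERK kinases, differed by -0.82, Smad7, an inhibitor of TGF-beta signalling, by -0.69, and Pltp, the phospholipid transfer protein, by -0.74. Serpinb10, a serine protease inhibitor, read 5.86, 10.34 and 9.73. Sash1 differed by -0.89 in its brighter probe set, and its other probe set read 6.08 on both Esam(lo) arrays. Ms4a7, a tetraspan membrane protein of myeloid cells, read 5.89, 7.07 and 6.26, at least 1.15-fold lower. The conjugating enzyme Ube2e2 read 9.94, 9.95 and 9.09, alike on the controls and lower on the labelled array.

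The third array shows where these genes stand relative to both control subsets. Of the 70 higher genes, 64 were above both controls on the labelled array and 6 lay between them. Of the 57 lower genes, 41 were below both controls and 16 lay between. Genes with a difference of any size in the pair give only a loose comparison. Of those above background with a higher value, 91.1% were also above the control Esam(hi) array. Of those with a lower value, 34.7% were also below it. Among the lower genes, 7 were at least 2-fold higher in Esam(hi) than in Esam(lo) control cells and 14 at least 2-fold lower. Among the higher genes these counts were 2 and 16. The shares of all genes this far apart between the controls were not counted, and the control Esam(lo) value enters both differences. The counts are therefore given as values only.

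The genes nearest the 1.4-fold threshold were similar on either side of it. The 3 higher genes just inside were Ubash3b at 1.403-fold, Cask at 1.404-fold and Bub1 at 1.408-fold, and just outside were Dhx57, Vamp7 and Adam11, at 1.394-fold, 1.394-fold and 1.392-fold. Among lower genes, Tgm2 at 1.43-fold, Lrp1 at 1.41-fold and Cyp4f18 at 1.41-fold were just inside. Arhgap28 at 1.39-fold, Csf2rb2 at 1.38-fold and Pla2g7 at 1.38-fold were just outside.

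In 49 lists of genes by function or cell type, 575 genes were above background and 58 were past 1.4-fold. Of all 9399 genes above background, 127 (1.35%) were past it. The lists were chosen with earlier results of these data known, so the larger share in them is no sign of enrichment. No such member was found in 15 lists. Of 23 core genes of classical DCs, 1 was past 1.4-fold (Btla, an inhibitory receptor, at 8.84 and 9.42 on the pair). Of 29 transcription factors of DCs, Hic1 alone was past it; 19 had a lower value and 5 a higher one, with a median of -0.06. Batf3 differed by -0.34, Irf8 by -0.22 and Zeb2 by 0.31, while Irf4 read 10.05 on both arrays and Zbtb46 was tied at 8.38. None of 19 genes of MHC class II and antigen presentation, of 14 costimulatory genes or of 18 interferon-stimulated genes was past 1.4-fold. The 12 housekeeping genes had a median of 0.02 and no member past 1.4-fold.

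**Figure D4:**
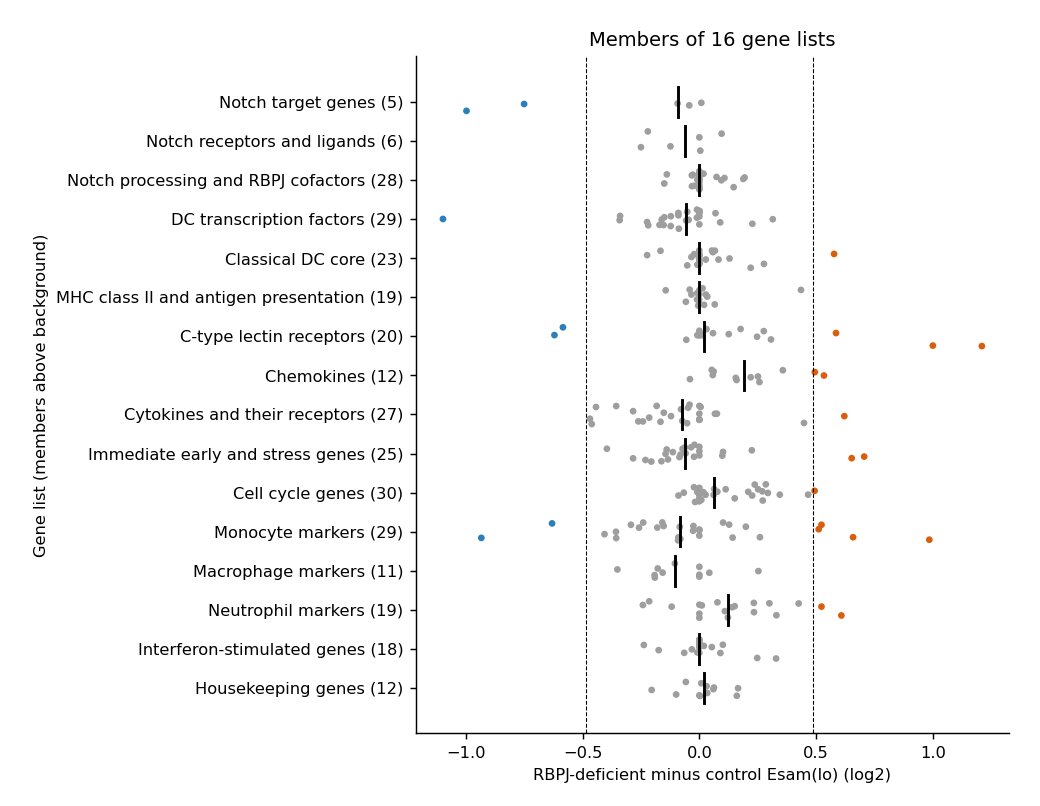
Difference between the labelled RBPJ-deficient and the control Esam(lo) array (log2) for the members above background of selected gene lists; each point is a gene, vertical bars are list medians and dashed lines mark 1.4-fold. Most lists are centred near 0, with chemokines at a median of 0.19 and neutrophil markers at 0.12.

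Of the cell cycle, immediate early and cytokine lists, 3.33%, 8% and 3.7% were past 1.4-fold, against 1.35% of all genes above background. Each of these shares rests on 1 or 2 genes. Over all genes above background, 2738 had a higher and 2883 a lower value. Of 30 cell cycle genes 19 had a higher and 5 a lower value, with a median of 0.06, and Bub1, a mitotic checkpoint kinase, alone was past 1.4-fold. Of 25 immediate early and stress genes 17 had a lower and 5 a higher value. The 2 past 1.4-fold were higher: Egr2 read 11.38, 11.10 and 11.81 in Esam(hi) controls, Esam(lo) controls and the labelled sample, and Egr3 read 10.77, 9.93 and 10.59. Their relatives in the same list went the other way, with Egr1 at -0.14 and Fos at -0.11. Of 27 cytokines and their receptors 17 had a lower and 5 a higher value, and Il13ra1 alone was past 1.4-fold.

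Markers of other cell types were read as whole lists, since a sorted population can hold other cells. Counts are of members above background. Over all genes above background 1.35% were past 1.4-fold, 2738 had a higher value and 2883 a lower one. The lists were chosen with earlier results of these data known, so the counts are no sign of enrichment. Each summed level is the log2 of the linear sum over all measured members, also those below background, so bright genes weigh most. Of 29 monocyte markers 4 were higher (Lyz1, Thbs1, Chil3 and F13a1, the last named after its value was seen) and 2 lower (Ace and Cd300e), and their summed level was 15.82 on the control and 15.83 on the labelled array. Of 19 neutrophil markers 13 had a higher and 3 a lower value, 2 were past 1.4-fold (Chil3 and Ctsg), and the sum went from 14.71 to 14.79. None of 11 macrophage markers was past 1.4-fold, and their sum went from 13.16 to 13.08. Of 6 markers of plasmacytoid DCs 2 were higher, Spib at 9.28 and 9.80 and Cox6a2 at 7.95 and 8.72; the sum went from 11.48 to 11.69, and the defining marker Siglech was below background at 6.57 on both arrays. Among the T cell, NK cell, platelet, mast cell, stromal and CD8+ DC markers 0 were past 1.4-fold. The part of other cells in these differences was not tested.

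Of 5 plasma cell markers above background, Jchain alone was past 1.4-fold, and it was lower on the labelled array. Jchain, which joins IgA and IgM units, read 10.70 in Esam(hi) controls, 9.68 in Esam(lo) controls and 8.68 on the labelled array. Of 7 immunoglobulin variable segments above background 6 had a lower value, with a median of -0.71. At least 1.4-fold lower were 4 of them, against 0.606% of all genes above background. Igkv5-43 went from 8.97 to 5.24, at least 4.30-fold lower, and the next segment from 9.45 to 7.46, although segments of this family are similar in sequence and their probes may read each other. The other plasma cell markers above background differed little: Xbp1 was tied at 10.43, Irf4 read 10.05 on both arrays, Derl3 differed by -0.09 and Prdm1 by -0.15. The plasma cell genes Mzb1 and Sdc1 were below background on both arrays, the summed plasma cell level went from 11.98 to 11.81, and the summed B cell level from 11.22 to 11.07 with Cd79a, Ms4a1 and Pax5 below background. Erythroid markers summed to 10.10 and 9.83, with Car1 past 1.4-fold and Alas2, Gata1 and Klf1 below background. The share of antibody-secreting or red cell RNA in the Jchain, segment and Car1 differences was not tested.

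Of 8 listed sex-linked genes above background, 1 was higher and 2 were lower, against 0.745% and 0.606% of all genes above background. Xist, the RNA that silences an X chromosome in female cells, read 11.13 on both control arrays and 12.09 on the labelled array, a difference of 0.96. Of the Y-linked genes, Eif2s3y went from 8.36 to 7.02, a difference of -1.34, and ended just above the labelled array's background of 6.86. Kdm5d went from 7.55 to 6.82, a difference of -0.72, and ended below that background. Srsy, not among these 8, went from 8.99 to 8.21. Sry differed by -0.12. Sry and Srsy were higher in Esam(hi) than in Esam(lo) controls, at 8.52 against 7.54 and 10.77 against 8.99. Eif2s3y and Kdm5d were lower in Esam(hi) than in Esam(lo) controls, at 7.47 against 8.36 and 7.20 against 7.55. Uty, Usp9y, Zfy1 and Zfy2 were below background on both Esam(lo) arrays. Srsy is a multicopy gene, and its 19 probe sets differed by -0.98 to -0.73. Among X-linked genes that escape silencing, Eif2s3x was higher by 0.39, Kdm6a by 0.35, Ddx3x by 0.25 and Kdm5c by 0.15, under 1.4-fold. Xist was above background on every array, and so were the Y-linked genes Eif2s3y, Sry and Srsy. The labelled array read higher for Xist and lower for these 3 Y-linked genes than the control Esam(lo) array. The part of sex in the other differences was not tested.

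The positions of the higher genes were looked at after their values were known, because Itgad and Cox6a2 lie beside Itgax, the gene whose promoter drives the Cre. In the gene order of GRCm38.p6, Itgam (0.22), Itgax (-0.05), Itgad (1.396) and Cox6a2 (0.77) follow each other, and the next measured genes on both sides differed by 0. Bmp2 and Plcb4 lie 4 places apart; between them Hao1 differed by 0, Tmx4 by 0.20 and Plcb1 by 0.20. None of the 12 nearest measured neighbours of Rbpj was past 1.4-fold. Of 19897 pairs of adjacent genes, 8 were past 1.4-fold in the same direction. The 4 higher pairs were Ackr1 with Cadm3, Mgl2 with Clec10a, Itgad with Cox6a2, and Ccr1 with Ccr1l1. The 4 lower pairs were Rundc3b with Abcb1a, Kdm5d with Eif2s3y, and 2 pairs of immunoglobulin segments. Whether the transgene or linked DNA of the targeted strain bears on the Itgax neighbours was not tested.

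**Figure D5:**
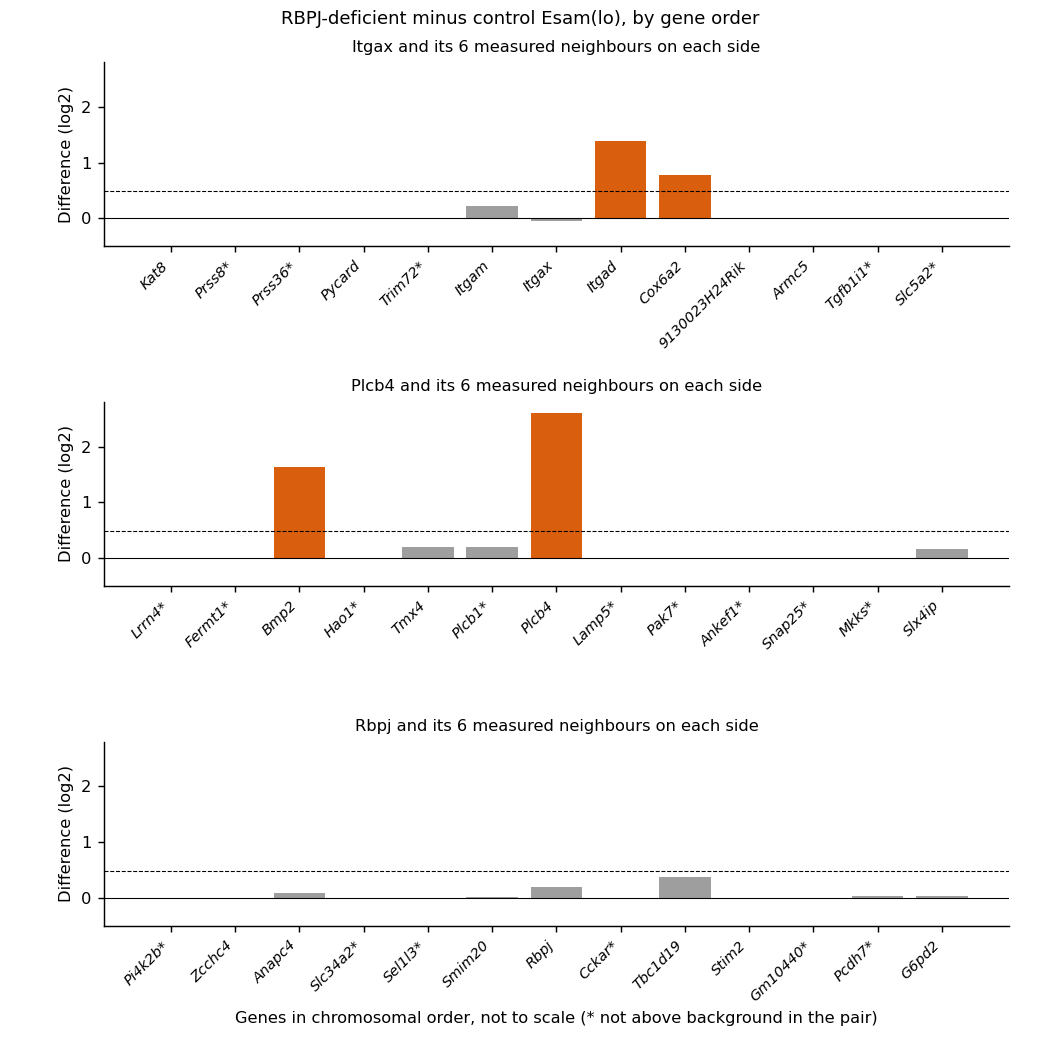
Difference between the labelled RBPJ-deficient and the control Esam(lo) array (log2) for Itgax, Plcb4 and Rbpj and the 6 measured genes on each side, in chromosomal order and not to scale; the dashed line marks 1.4-fold and a star marks genes not above background. Itgad and Cox6a2 stand beside Itgax, Bmp2 stands near Plcb4, and no bar near Rbpj reaches the line.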

How the data were processed

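Sorted splenic CD11b+ DCs were measured on 3 arrays, 1 per group. The authors deposited log2 values, 1 per probe set and array, made with RMA and Affymetrix Expression Console, per the submitters' processing notes; versions and the set of arrays normalized together are not stated there. Of 35556 probe sets, 21789 named 1 gene, 1621 several and 12146 none. Only the first were used, and a gene with several (999 of 19938 genes) was read from its probe set of highest mean. Entrez numbers were found for 21698 in a GRCm38.p6 gene table, which was used for names, gene types and gene order only.

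Differences are the labelled RBPJ-deficient minus the control Esam(lo) value. With 1 array per group there are no tests or replicate errors, and the array number sets the precision. Genes were called by size (1.4-fold or 2-fold) above background. The text names every gene at least 2-fold apart, the 15 farthest in each direction below 2-fold, up to 4 members past 1.4-fold in each list and fixed markers, leaving out provisional symbols, small RNAs and, except where described, receptor segments. The comparison, lists and rules were chosen with earlier results of these data known. The promoter start, the 7-letter word and the gene-order view were chosen after values were seen. Counting was tested on simulated data. Alternatives were no filter, a filter 1 log2 unit stricter, median centring, quantile normalization, removal of a running median over 501 genes, the mean over probe sets, protein-coding genes only and untied genes only.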

Additional observations from a re-analysis of the deposited data

How the results depend on the processing

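The counts kept their order of size under the alternatives. Genes at least 1.4-fold higher numbered 54 to 92 and lower 41 to 60, against 70 and 57. Genes at least 2-fold lower numbered 12 to 20, against 18. Genes at least 2-fold higher numbered 3 with the stricter filter and 6 to 7 otherwise, against 7. No named gene changed direction. Ubash3b fell under 1.4-fold with median centring, Bub1, Ccl2 and Ubash3b with quantile normalization, and Sash1 with the mean over probe sets. Removing the running median moved nothing, because ties hold it at 0. No paired analysis was possible because each group holds 1 array. The array number limits every value, and dim genes are limited by the signal over background.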

Other observations

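Probe sets that name several genes or none entered no comparison. Of those naming several, 1110 were above background in the pair, and on the labelled array 8 of them were higher by at least 2-fold and 7 lower. Among the probe sets with no gene, 5006 passed the background filter. The labelled array read higher by 2-fold or more for 103 of these and lower by as much for 22. The direction was thus the reverse of that among the 9399 genes, where 7 read higher and 18 lower by this size. Differences of this size were also a larger share of these probe sets than the 0.266% found among the genes. What these probe sets measure was not tested, so the 2-fold counts above hold for the genes only.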
